A study of Mus musculus with 12 samples.

Results

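Germinal center (GC) B cells were compared with other B cells from the spleens of mice that carried the lupus susceptibility interval Sle1b and were labelled as lacking Ifnar1, which encodes one chain of the receptor for type I interferons. The comparison takes 6 of the 12 RNA-seq libraries of the series, chosen by their labels alone: 3 of GC B cells and 3 of non-GC B cells of the genotype B6.Sle1b.IFNaR1-/-, called Ifnar1KO here. All donors were 6-month-old female mice on a C57BL/6 background, so every library carries both Sle1b and the Ifnar1 knockout, and no mouse without Sle1b enters. Viable B220+GL7+CD95+ cells were sorted as GC and viable B220+GL7-CD95- cells as non-GC. The other 6 libraries, of B6.Sle1b mice with intact Ifnar1, served to estimate the spread, to join values across tables and for a comparison of genotypes at the end. Each of 3 batches held 1 GC and 1 non-GC library of the genotype, and values are given in the order of batches 1, 2 and 3. The labels give the knockout as a genotype of the mouse and name no promoter or Cre that would restrict it to B cells. Cells came from pooled splenocytes and the labels do not name separate animals, so p-values reflect only how far these libraries vary, part of which may be technical.

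GC B cells are activated B cells that divide fast in follicles, where antibody V regions are mutated and the heavy chain class is switched. Cells of the dark zone divide and mutate, and cells of the light zone test the new receptor against antigen with the help of T cells, under transcription factors such as Bcl6. In mice with Sle1b, GCs form without immunization. Type I interferon binds a receptor of the chains Ifnar1 and Ifnar2, which acts through JAK kinases and STAT factors on a wide set of interferon-stimulated genes.

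Levels are in FPKM, fragments scaled by transcript length and sequencing depth, as the authors computed them. Differences are GC minus non-GC of log2(FPKM + 1), a scale that makes the change of low genes look smaller than it is. Those of single batches are from the tables that compare the pair directly, and those of a fit are from values joined across tables. Reads on named genes were estimated in each Ifnar1KO library, from 3.48 to 8.43 in units of 1e6 reads, at which 1 read on 1 kb is worth 0.131 to 0.394 FPKM. Batch 3 stood apart in both cell types. Its non-GC and GC libraries had 26.9% and 52.6% of estimated reads on loci without a gene name, against 4.31% and 15.0% in batch 1 and 6.64% and 13.4% in batch 2. Only 8330 and 5359 genes reached 1 FPKM there, against 10093 to 11779 in the libraries of batches 1 and 2. Actb, the main cytoskeletal actin, measured 716, 536 and 122 FPKM in non-GC cells and 733, 274 and 12.9 in GC cells. Across 14595 tested genes the differences of batches 1 and 2 correlated with a Pearson r of 0.277, and those of batch 3 with r of 0.034 against batch 1 and 0.031 against batch 2. These correlations are across genes, which are not independent replicates. Each result is therefore given with its batches.

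The targeted gene was read in most libraries that should lack it. Ifnar1 measured 54.9, 70.5 and 2.87 FPKM in non-GC cells and 14.4, 14.7 and 0 in GC cells of the libraries labelled Ifnar1KO. Each GC library had less of it than its non-GC partner (log2 difference -1.91, SE 0.74, adjusted p = 0.343 in limma). The joined values of the Sle1b libraries, with intact Ifnar1, were 14.5, 36.1 and 3.38 FPKM in non-GC and 8.26, 9.89 and 6.90 in GC cells. In both cell types the Ifnar1KO value lay above the Sle1b value in batches 1 and 2 and below it in batch 3. Over all libraries the 2 genotypes overlapped. The values cover the whole gene and do not show whether the exon disrupted by the knockout is present, so they do not check the genotype.

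B cell identity genes were read in every library, and GC markers were higher in the libraries labelled GC in batches 1 and 2 but not in batch 3. Ptprc, whose product on B cells is the sort marker B220, measured 697, 791 and 62.9 FPKM in non-GC cells and 388, 748 and 2.1 in GC cells. Of the 6 markers of GC B cells, all reached 1 FPKM in the GC cells of batches 1 and 2, where their summed level was 135.2 and 376.1 FPKM, against 4.03 and 3.41 in the non-GC cells. In batch 3 the summed level was 14.1 FPKM in GC and 18.1 in non-GC cells, and S1pr2, Mybl1 and Nuggc were listed at 0 in both. Fas, which encodes the sort marker CD95, measured 3.37, 1.77 and 17.3 FPKM in non-GC cells and 14.3, 74.8 and 12.2 in GC cells. The GC library of batch 3 thus lay below its non-GC partner for the marker it was sorted on, and the groups overlapped. The resting markers were lower in GC cells in all 3 batches, with summed levels of 3603, 4024 and 661.8 FPKM in non-GC and 1555, 2663 and 153.8 in GC cells.

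Across all 3 batches, 0 of 14595 tested genes (0.0%) passed the test as higher in GC cells and 3 (0.0206%) as lower, in limma at a Benjamini-Hochberg adjusted p under 0.05. At an unadjusted p under 0.05, 333 genes were higher and 1503 lower. The median difference over all tested genes was -0.39, and it was 0.08 after each library was centered on its median and -0.03 after quantile normalization. The unadjusted counts became 947 higher and 483 lower after centering and 724 and 674 after quantile normalization, so the excess of lower genes moved with the scaling. List medians below are to be read against the -0.39 of all genes, and counts of members against the 68.0% of all tested genes that lay below 0 and the 32.0% that lay above. In the 3 direct tables of GC against non-GC cells, 3.65% of tested genes were higher in GC cells in all 3 and 20.3% were lower in all 3.

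The 3 genes that passed were Iglc4, Gm23850 and Ptcd2. Iglc4, in the immunoglobulin lambda constant cluster (chr16:19189440-19247237 in GRCm38, the span of its locus in the files), was at 23.8, 37.0 and 54.1 FPKM in non-GC cells and was listed at 0 in all 3 GC libraries (adjusted p = 0.00663). It shares sequence with the other lambda genes, so its value is uncertain. Ptcd2, which encodes a mitochondrial protein with pentatricopeptide repeats (chr13:99319649-99344678), measured 24.7, 27.4 and 23 FPKM in non-GC cells and 0.706, 1.14 and 0 in GC cells. It fell by 3.96 on the log2 scale (SE 0.56, adjusted p = 0.0437), and the 3 non-GC libraries were nearly level while all GC libraries lay far below them. Gm23850 (locus chr3:86224680-86782692, which spans far more than this predicted gene) was at 6.38, 27.7 and 13.2 FPKM in non-GC cells and was listed at 0 in all GC cells (adjusted p = 0.0437). Only Iglc4 passed under most other settings. Leaving out the non-GC libraries of batch 2 or 3, or the GC library of batch 3, ended all calls, and leaving out any one Ifnar1KO library ended that of Ptcd2.

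With batch 3 left out and the filter on low values redone, 16 of 12283 genes (0.13%) were higher and 24 (0.195%) lower in GC cells at the same threshold. The 16 higher genes included Mybl1, Mki67, Ighg2b, Ighg2c, Ighg1, Arhgap8, Ighg3, Eaf2, Nuggc, E2f8, Brip1, S1pr2, Top2a, Neil1 and Tfdp1. All 16 were also higher in the GC cells of Sle1b mice in that fit, with a median difference of 4.43 in both genotypes. The 24 lower genes had a median of -4.15 in Ifnar1KO and -1.78 in Sle1b, where 23 of them were also lower. Both sets were chosen on their Ifnar1KO values, and 0 interactions passed in that fit. Of the 24 lower genes, 6 were immunoglobulin V or lambda genes and 9 were predicted genes or pseudogenes, and 10 were listed at 0 in the GC cells of both batches. These counts rest on the filter too, since the 8 libraries of batches 1 and 2 gave 0 calls when the 14595 genes of the whole series were tested. Of the 16 higher genes, 5 were also higher in GC cells of batch 3 and 6 were listed at 0 in both libraries of that batch. Brip1, a helicase that works with Brca1, was the widest exception, at 224 FPKM in non-GC and 0.284 in GC cells of batch 3. Of the 24 lower genes, 8 were also lower in batch 3 and 12 were listed at 0 in both of its libraries.

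**Figure D1:**
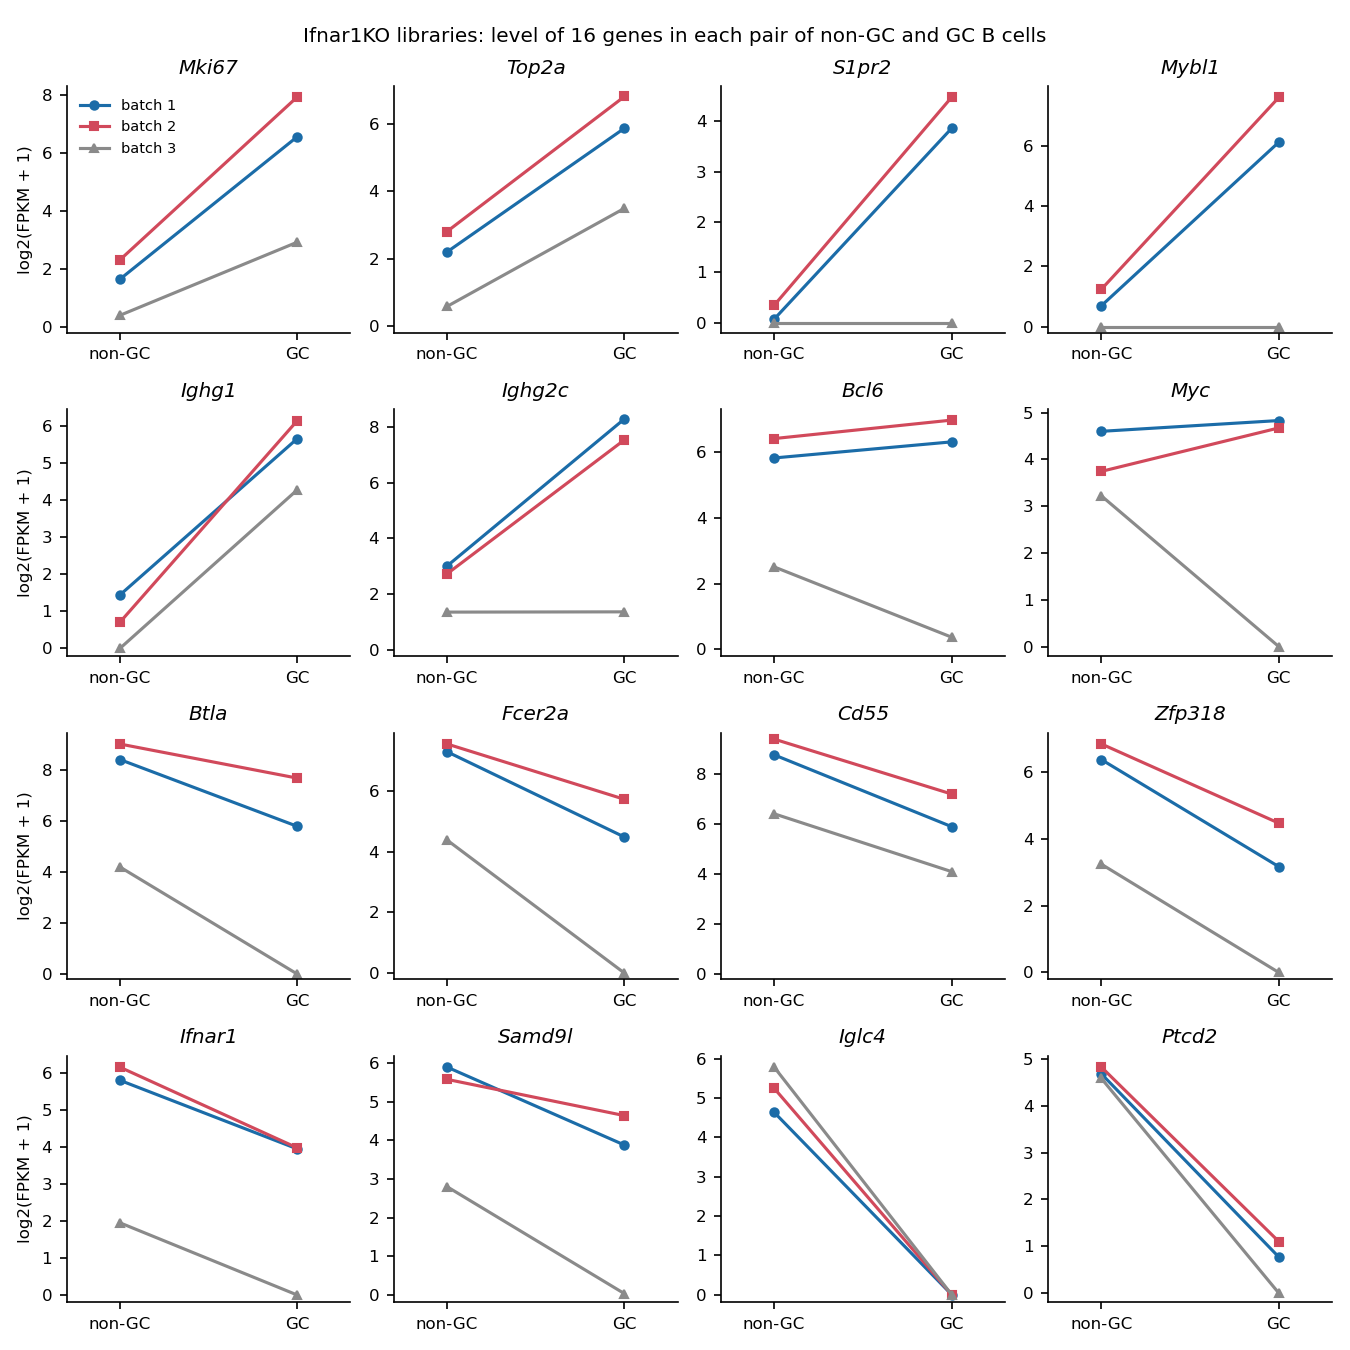
Level of 16 genes in the Ifnar1KO libraries, as log2(FPKM + 1), in non-GC and GC B cells. Each line joins the 2 libraries of 1 batch, with no error bar because each point is 1 library. Mki67, Top2a and Ighg1 rise in all 3 lines, S1pr2 and Mybl1 only in batches 1 and 2, and Iglc4 and Ptcd2 drop to or near 0 in all 3.

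Genes of cell division lay almost all above 0 in the GC cells of batches 1 and 2 and at a median of 0 in batch 3. Of 44 tested genes of mitosis and the spindle, 42 lay above 0, with medians of 2.03, 2.72 and 0 in the 3 batches, and 12 were higher in all 3. Mki67, whose protein Ki-67 coats the chromosomes of dividing cells, measured 2.12, 3.94 and 0.316 FPKM in non-GC cells and 93.0, 242 and 6.56 in GC cells. It was higher in GC cells of every pair, and each GC library lay above all 3 non-GC libraries. The difference was 4.36 over all batches (SE 0.87, adjusted p = 0.305) and it passed in batches 1 and 2 (5.31, SE 0.45, adjusted p = 0.00706). Top2a, the topoisomerase that untangles chromosomes before division, measured 3.6, 6.01 and 0.494 FPKM in non-GC and 57.9, 112 and 10.3 in GC cells. Its groups did not overlap either, and it passed in batches 1 and 2 (3.92, SE 0.47, adjusted p = 0.0399).

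Genes of the later steps of division had smaller levels with the same order. Prc1, which bundles the midzone of the spindle, measured 2.28, 5.72 and 0 FPKM in non-GC cells and 11.5, 22.7 and 4.95 in GC cells (difference 2.12, SE 0.49, adjusted p = 0.305). Within each batch its GC library was higher, although the GC library of batch 3 lay below the non-GC library of batch 2. The spindle motor Kif15 was nearly absent from non-GC cells, with 0.192, 0.255 and 0 FPKM against 12.4, 12.7 and 5.59 in GC cells. Hmmr, a spindle assembly factor, showed 0.401, 0.0637 and 0.0648 FPKM against 12.1, 11.9 and 1.03. For both genes the 3 GC libraries lay above all non-GC libraries, with adjusted p of 0.305 and 0.311 in limma.

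The promoters of these genes are shown because 2 short sequence elements tied to cell cycle genes recur in them. Mki67, Prc1 and Kif15 have the smallest p among mitosis genes with the same sign in all batches. Capitals mark CCAAT, the CCAAT box, and TTTGAA, the cell cycle homology region, on either strand. The sequences run 5′ to 3′ on the strand of the gene, from 250 bases before to 50 after the first RefSeq start in GRCm38.p6, at chr7:135716330-135716629 (minus strand), chr7:80294201-80294500 (plus strand) and chr9:122950831-122951130 (plus strand).
Mki67: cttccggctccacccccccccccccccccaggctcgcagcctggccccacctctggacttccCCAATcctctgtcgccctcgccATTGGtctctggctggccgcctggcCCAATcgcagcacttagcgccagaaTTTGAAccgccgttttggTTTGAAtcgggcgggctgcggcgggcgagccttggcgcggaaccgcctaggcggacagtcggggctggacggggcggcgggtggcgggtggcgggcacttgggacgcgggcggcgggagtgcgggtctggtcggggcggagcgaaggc
Prc1: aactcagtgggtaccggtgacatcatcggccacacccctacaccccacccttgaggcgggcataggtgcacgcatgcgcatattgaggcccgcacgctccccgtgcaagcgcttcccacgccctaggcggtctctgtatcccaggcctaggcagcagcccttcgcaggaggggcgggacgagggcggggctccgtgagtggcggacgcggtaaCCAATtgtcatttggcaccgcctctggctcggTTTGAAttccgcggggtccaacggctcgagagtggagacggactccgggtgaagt
Kif15: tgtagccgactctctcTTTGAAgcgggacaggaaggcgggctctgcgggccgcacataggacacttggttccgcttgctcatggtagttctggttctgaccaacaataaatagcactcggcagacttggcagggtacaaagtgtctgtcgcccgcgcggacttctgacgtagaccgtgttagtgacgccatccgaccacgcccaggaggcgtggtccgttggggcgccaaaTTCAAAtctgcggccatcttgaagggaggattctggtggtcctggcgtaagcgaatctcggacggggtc
Mki67 held 3 matches to CCAAT and 2 to TTTGAA, Prc1 held 1 of each, and Kif15 held 0 and 2. Of 37 tested mitosis genes with a promoter in the table, 28 (75.7%) held TTTGAA and 27 (73.0%) CCAAT, against 13.5% and 39.4% of the 9248 promoters of tested genes and 18.1% and 37.9% of all 27025 promoters. Among 40 replication genes the shares were 15.0% for TTTGAA and 65.0% for CCAAT. The E2F element GCGGGAA showed the other order, in 0 of 37 mitosis promoters, 15 of 40 replication promoters (37.5%), 8.11% of promoters of tested genes and 4.66% of all promoters. A match is a description of these letters and not of binding.

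DNA synthesis genes followed with smaller differences. Of 46 tested genes of replication and S phase, 42 lay above 0, with medians of 1.38, 1.66 and 0 by batch. Uhrf1, which passes DNA methylation on to the new strand, measured 0.436, 0.931 and 1.99 FPKM in non-GC and 19.8, 25.8 and 2.44 in GC cells. It separated the cell types fully, but in batch 3 the margin was small (adjusted p = 0.323). The E2F partner Tfdp1 (0.849, 1.78 and 0 FPKM against 19.9, 30.3 and 0) passed in batches 1 and 2 (3.57, SE 0.55, adjusted p = 0.0436). The repressor E2f8 passed there too (4.12, SE 0.59, adjusted p = 0.0431), with 0.892, 0.285 and 3.04 FPKM against 25.7, 25.3 and 0, and so went the other way in batch 3. Its relative E2f7 was higher in GC cells of all 3 pairs, with 0.138, 0 and 0.568 FPKM against 4.85, 5.54 and 9.39 (adjusted p = 0.305). Replication-dependent histone genes had 23 of 28 tested members above 0, with medians of 2.34, 0 and 0 by batch, so that batch 1 alone carried a list median above 0.

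The GC program itself was read in batches 1 and 2. Among 39 tested GC-associated genes 25 lay above 0, with medians of 0.89, 1.5 and 0 by batch. With the filter redone in batches 1 and 2, 6 of 38 tested members passed as higher, against 0.13% of all 12283 genes. On the 14595 genes of the whole series the same batches gave 0 calls. Mybl1, a Myb family transcription factor of dividing GC cells, had the largest difference of the 16 higher genes in batches 1 and 2 (5.97, SE 0.51, adjusted p = 0.00706), from 0.616 and 1.36 FPKM to 68.9 and 195. S1pr2, the receptor that keeps B cells in the center of the follicle, measured 0.0484 and 0.269 FPKM against 13.5 and 21.2 there (adjusted p = 0.0436). Nuggc, a nuclear GTPase of GC cells, was listed at 0 in all 3 non-GC libraries and measured 14.4, 23.3 and 0 FPKM in GC cells (adjusted p = 0.0431 in batches 1 and 2). Gcsam, a signalling adaptor of GC cells, kept its direction in all batches, with 0, 0 and 0.149 FPKM against 5.85, 10.9 and 1.69 (2.49, SE 0.78, adjusted p = 0.311).

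Eaf2 and Neil1 also passed in batches 1 and 2. Eaf2, an elongation factor partner, went from 0.802 and 1.51 FPKM to 24 and 71.5 (4.37, SE 0.62), and Neil1, a DNA glycosylase of base excision repair, from 1.61 and 4.07 to 43.9 and 48.0 (3.74, SE 0.51), both with an adjusted p of 0.0431. Of 37 tested genes of antibody diversification and repair, 19 (51.4%) lay above 0 and 18 below, against 32.0% of all tested genes above 0, and the list median of 0.03 was 0.51 after centering. H2afx, the histone that marks DNA breaks, was higher in GC cells of all pairs, at 0.747, 0.589 and 0 FPKM against 11.9, 10.7 and 4.76 (2.77, SE 0.73, adjusted p = 0.307). Xrcc4, which joins broken ends, was lower in all pairs, at 8.70, 10.6 and 6.08 against 4.94, 0 and 0 (-2.27, SE 0.62, adjusted p = 0.311).

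None of the GC transcription factors passed over all batches. Of 35 tested members 9 (25.7%) lay above 0, with a median of -0.44 that moved to 0.04 after centering. Bcl6, the master regulator of the GC, was already well read in non-GC cells, at 55.6, 84.1 and 4.69 FPKM, and measured 78.4, 125 and 0.293 in GC cells. It was higher in GC cells of batches 1 and 2 and lower in batch 3, for a difference of -0.30 over all batches (SE 0.78, adjusted p = 0.885) and 0.60 in batches 1 and 2 (adjusted p = 0.395), and the sign of the former turned after centering (0.17) and quantile normalization (0.24). Myc, which drives reentry into the cell cycle, measured 23.3, 12.4 and 8.33 FPKM against 27.5, 24.5 and 0 and did not pass (adjusted p = 0.761). Egr2, a factor induced by antigen receptor signals, was higher in all 3 pairs, at 3.09, 1.51 and 0 FPKM against 7.84, 7.81 and 11.3 (2.17, SE 0.71, adjusted p = 0.317).

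Several other regulators of B cells had lower values in GC cells. Zfp318, needed for IgD expression in mature B cells, measured 81.7, 113 and 8.45 FPKM in non-GC cells and 7.98, 21.1 and 0 in GC cells, lower in every pair. It passed in batches 1 and 2 (-2.70, SE 0.42, adjusted p = 0.0436) and did not over all batches (-2.84, SE 0.67, adjusted p = 0.305). Mef2c was at 217, 330 and 30.9 FPKM against 97.7, 169 and 0, and the item that holds Foxp1 with the overlapping Eif4e3 at 256, 400 and 34.1 against 99.1, 126 and 12.1. Irf4, which acts in both GC exit and class switching, was at 40.1, 56.4 and 5.03 against 17.1, 40.3 and 0.539. All 3 were lower in each pair, with adjusted p of 0.311, 0.328 and 0.389. Of 28 tested Polycomb and chromatin genes 10 (35.7%) lay above 0, near the 32.0% of all tested genes. Ezh2, the methyltransferase that silences cell cycle brakes in GC cells, measured 11.9, 16.4 and 7.25 FPKM against 53.0, 45.7 and 6.09 and was higher in batches 1 and 2 only (1.16, SE 0.85, adjusted p = 0.571). Its partner Phf19 was higher in all batches, at 2.30, 0.763 and 0.344 FPKM against 15.2, 30.9 and 3.54 (2.76, SE 0.66, adjusted p = 0.305), as was Whsc1, which methylates a different histone residue, at 8.70, 9.18 and 1.21 against 34, 49.8 and 3.05 (adjusted p = 0.330).

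Class-switched heavy chain genes had higher values in GC cells. In batches 1 and 2 all 4 IgG genes passed as higher in GC cells, against 0.13% of all 12283 genes. Ighg1 measured 1.71, 0.630 and 0 FPKM in non-GC cells and 49.5, 69.6 and 18.4 in GC cells, with no overlap, and missed the threshold over all batches (4.66, SE 0.88, adjusted p = 0.254). Without the Sle1b GC library of batch 3 it passed (adjusted p = 0.0313). Ighg2b was at 4.6, 2.85 and 0.585 FPKM against 163, 150 and 2.30. Ighg2c, the subclass of this strain linked to interferon and T-bet, was at 7.08, 5.66 and 1.58 FPKM against 309, 184 and 1.60. The former was higher in GC cells of every pair, and Ighg2c was level in batch 3. Ighg3 was at 12, 2.87 and 6.55 FPKM against 133, 170 and 1.67 and went the other way in batch 3. Adjusted p values in batches 1 and 2 were 0.00706 for Ighg2b, 0.0379 for Ighg2c and 0.0431 for Ighg1 and Ighg3.

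The IgE and IgA genes did not pass. Ighe measured 0, 0 and 0.708 FPKM in non-GC and 7.21, 23.3 and 0.439 in GC cells, and Igha 22.15, 3.42 and 0 against 38.8, 11.0 and 9.43 (adjusted p = 0.350 and 0.345). Each reached 1 FPKM in the GC cells of batches 1 and 2. The unswitched item, Ighm together with the overlapping Ighd, was at 2565, 2795 and 527.4 FPKM against 1378, 2288 and 133.8, lower in every pair (adjusted p = 0.577). Tbx21, which encodes T-bet, was at 0.332, 1.23 and 0 FPKM against 1.66, 3.13 and 0 (adjusted p = 0.603). Of 21 tested genes of the T-bet-associated list 17 lay above 0, with medians of 1.00, 1.17 and 0 by batch. Its member Zbtb32, a repressor expressed in activated B cells, was higher in each pair, at 1.46, 6.49 and 0.161 FPKM against 3.95, 13.8 and 27.4 (adjusted p = 0.339).

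Light chain genes lay below 0. Igkc, the kappa constant gene, measured 3998, 2292 and 603.2 FPKM in non-GC and 2685, 1998 and 79.1 in GC cells (-1.18, SE 0.95, adjusted p = 0.603). The item of Iglc2 and Iglj2 was at 234, 193 and 18.7 FPKM against 78.6, 24.4 and 0.102, and Iglc3 at 767, 470 and 19.3 against 189, 110 and 0. Iglc1, in contrast, was nearly level in batch 2, at 397, 374 and 121 against 239, 324 and 0. All 4 lay below 0 in each pair, and the lambda genes share sequence, so that their reads may be split among them.

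In every batch the GC library held fewer V segments than the non-GC library. Of 158 Igkv segments, 92, 74 and 16 reached 1 FPKM in non-GC cells and 41, 35 and 4 in GC cells. Of 183 Ighv segments, 104, 74 and 7 did so in non-GC and 55, 33 and 3 in GC cells. Among tested segments 79 of 89 Igkv and 83 of 93 Ighv lay below 0, with medians of -1.22 and -1.16, and these lists were chosen after their values were seen. The summed level of Igkv segments changed by -1.79, -1.35 and -2.39 on the log2 scale, and that of Igkc by -0.57, -0.20 and -2.93. The V sum was thus lower relative to its constant gene in GC cells of batches 1 and 2, where the ratio of the sums was 0.294 and 0.158 in GC against 0.683 and 0.352 in non-GC cells, and higher in batch 3 (0.558 against 0.383). Summed Ighv levels changed by -1.25, -1.33 and -0.91, against -0.90, -0.29 and -1.98 for the Ighm and Ighd item. Igkv13-82 was among the smallest p values of all genes, at 12, 15.1 and 9.76 FPKM against 0.279, 0.870 and 0 (-3.18, SE 0.55, adjusted p = 0.197). Iglv3 was at 87.0, 85.6 and 0 FPKM in non-GC cells, was listed at 0 in all GC cells and passed in batches 1 and 2 (adjusted p = 0.0431). Fewer genes of any kind reached 1 FPKM in GC cells (10093, 10893 and 5359 against 11494, 11779 and 8330), and the part of this in the segment counts was not tested.

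**Figure D2:**
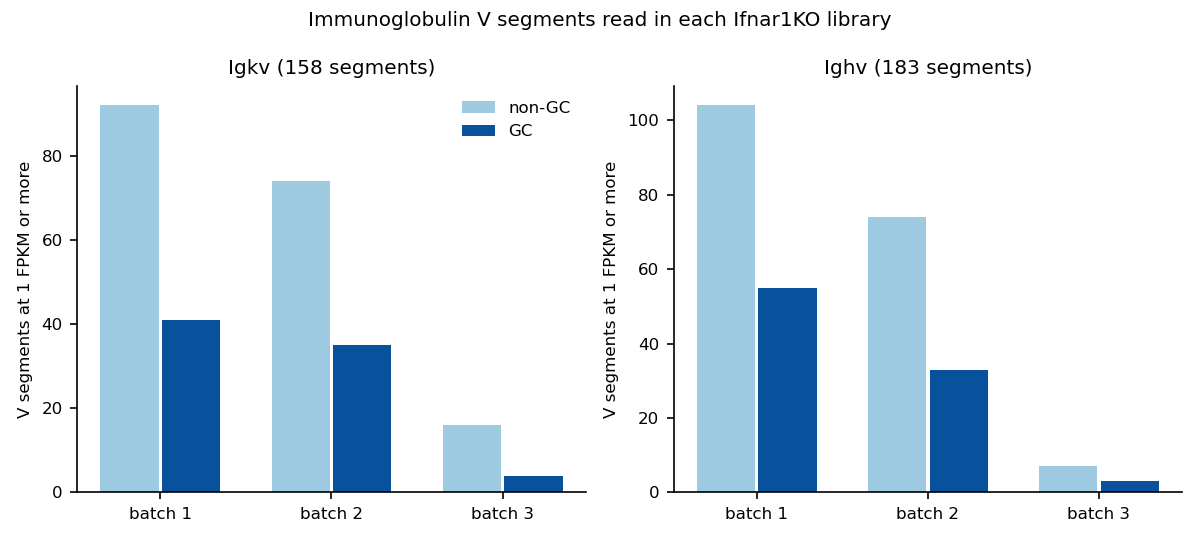
Number of Igkv (left) and Ighv (right) segments at 1 FPKM or more in each Ifnar1KO library, by batch, with non-GC cells in light and GC cells in dark bars. Each bar is 1 library. The GC bar is lower in all 6 pairs, from 92 to 41 Igkv segments in batch 1 for example.

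Genes of resting and follicular B cells had lower values in the GC cells of all 3 batches. Of 29 tested members 27 lay below 0 and 20 (69.0%) were lower in all 3 batches, against 20.3% of all tested genes, and the medians were -1.41, -1.51 and -1.42 by batch. Only 1 member, Cd55, passed in batches 1 and 2. Cd55, which protects cells from complement, measured 439, 680 and 84.7 FPKM in non-GC and 59.0, 147 and 16.2 in GC cells (-2.41, SE 0.51, adjusted p = 0.305 over all batches; -2.46, SE 0.37, adjusted p = 0.0431 in batches 1 and 2). Fcer2a, the low-affinity IgE receptor CD23 of follicular B cells, was at 155, 185 and 19.8 FPKM against 21.3, 51.7 and 0. Bcl2, a survival factor that GC B cells are known to lack, was at 32.0, 61.3 and 4.50 against 9.24, 6.27 and 0. Both were lower in every pair with adjusted p of 0.305, although the non-GC library of batch 3 lay below the GC libraries of batches 1 and 2.

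Receptors that place B cells in the follicle or let them circulate did not all have the same order. S1pr1, the receptor for exit into the blood, measured 44.5, 26.9 and 2.85 FPKM in non-GC cells and 14.7, 11.7 and 5.7 in GC cells, lower in batches 1 and 2 and higher in batch 3 (-0.57, SE 0.54, adjusted p = 0.659). Gpr183, which steers B cells to the edge of the follicle, measured 29.6, 23.6 and 0.522 FPKM in non-GC cells against 11.6, 7.58 and 0, and Ccr7, which draws B cells toward the T zone, at 18.6, 25.6 and 0 against 7.87, 4.44 and 0. The integrin Itga4 was at 58.7, 94.4 and 6.88 against 12.5, 51.3 and 0.888 and the cannabinoid receptor Cnr2 at 24.1, 22.7 and 2.29 against 7.94, 6.18 and 0. These 4 genes were lower in GC cells of all pairs in which they were read. Cxcr4, the dark zone chemokine receptor, measured 36.4, 23.1 and 0 FPKM against 68.7, 9.61 and 0, higher in batch 1 and lower in batch 2 (-0.05, SE 0.76, adjusted p = 0.987, and 0.42 after centering). Over the 27 tested positioning receptors 17 (63.0%) lay below 0, against 68.0% of all tested genes, and 9 were lower in all 3 batches, with a median of -0.21 that became 0.27 after centering. Marginal zone genes included Notch2, at 30.4, 59.0 and 2.21 FPKM against 5.88, 14.6 and 0.844, and Cr2, the complement receptor CD21, at 208, 245 and 7.96 against 38.5, 137 and 0.0866. Both were lower in each pair (adjusted p = 0.322 and 0.328).

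B cell receptor signalling and antigen presentation were read as lists and by single genes. Of 38 tested genes of the receptor complex and its proximal signalling 30 (78.9%) lay below 0, against 68.0% of all tested genes, and none passed in either limma fit (6 were lower and 0 higher at an unadjusted p under 0.05 over all batches). The list had medians of -0.83, -0.21 and -1.31 by batch. Bank1, a scaffold of receptor signalling, measured 334, 467 and 24 FPKM in non-GC cells and 89.1, 170 and 2.02 in GC cells (-2.07, SE 0.70, adjusted p = 0.323). Prkcb, the kinase upstream of NF-kappaB in B cells, was at 44.3, 90.05 and 5.31 against 15.6, 60.5 and 0. Of 18 tested MHC class II genes 17 (94.4%) lay below 0, and of 22 class I and immunoproteasome genes 21 (95.5%) did. Their medians were -0.89 and -0.83, or -0.42 and -0.36 after centering, and the class II median was 0 in batch 3. All 11 tested B cell identity genes lay below 0 too, with a median of -1.14 (-0.67 after centering). Lower values were thus not particular to receptor signalling and presentation genes. Cd74, the invariant chain, was at 3100, 1047 and 134.4 FPKM against 1172, 607.8 and 15.3, and the class II chain H2-Aa at 1467, 942.2 and 71.3 against 327.3, 348.3 and 24.3. Psme1, an activator of the proteasome, was at 267, 333 and 51.6 against 102, 107 and 3.04 (adjusted p = 0.311). Ctss, the protease that trims the invariant chain, was the only class II gene to pass in batches 1 and 2 (-2.99, SE 0.45, adjusted p = 0.0431), at 122, 74.8 and 0 FPKM against 16, 6.79 and 2.66.

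Surface molecules for contact with T cells went both ways. Havcr1, known as Tim-1, was higher in GC cells of every pair, at 9.05, 5.74 and 0 FPKM against 36.1, 53.5 and 0.614 (1.87, SE 0.72, adjusted p = 0.339). Cd86, a ligand of CD28, was higher in batches 1 and 2 and lower in batch 3, at 14.7, 16 and 15.5 FPKM against 51.4, 33.3 and 8.66, and Cd83, a light zone marker, was level in batches 1 and 2, at 93.5, 129 and 21.8 against 91.7, 134 and 3.47. The inhibitory receptor Btla was lower in each pair, at 337, 514 and 17.3 FPKM against 54.1, 203 and 0 (-2.62, SE 0.68, adjusted p = 0.307), as was Slamf6 at 119, 165 and 9.60 against 48.0, 53.7 and 0.967 (adjusted p = 0.311). Among cytokine receptors, Il4ra was at 58.7, 39.5 and 10.2 FPKM against 7.09, 13.1 and 2.87, lower in all pairs (-1.92, SE 0.58, adjusted p = 0.311). Il21r, the receptor for the cytokine of follicular helper T cells, was nearly level in batch 1, at 26.6, 44.3 and 2.26 against 26.2, 30.5 and 0.

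Interferon-stimulated genes were still transcribed in mice labelled as lacking Ifnar1. Of 61 such genes in the tables, 38, 36 and 22 reached 1 FPKM in non-GC cells and 33, 34 and 17 in GC cells. Of 55 tested members 32 lay below 0, with medians of -0.56, -0.16 and 0 by batch, close to the -0.51, -0.23 and 0 of all genes, and the list median of -0.28 became 0.20 after centering and 0.08 after quantile normalization. Only 12 of them were lower in all 3 batches, 21.8% against 20.3% of all genes. Samd9l, an antiviral factor, measured 58.8, 47.0 and 5.97 FPKM in non-GC and 13.7, 24 and 0.0191 in GC cells, and the nuclear body protein Sp100 191, 227 and 16 against 53.6, 116 and 3.50. Epsti1 was at 8.28, 6.24 and 8.82 against 0, 1.14 and 0. The item of Ifi203 and Mndal, which share loci, was at 326, 412 and 109 against 88.1, 174 and 5.24. These 4 had the smallest p among list members with the same sign in all 3 batches. That they were lower in all pairs was thus set by the choice. In that order, differences were -1.83 (SE 0.54), -1.51 (SE 0.50), -2.63 (SE 0.64) and -2.36 (SE 0.62). Their adjusted p in limma were 0.311, 0.323, 0.305 and 0.307. Rtp4, another gene of the list, was listed at 0 in 5 of the 6 libraries and at 0.125 FPKM in the GC library of batch 3.

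The short core of the interferon-stimulated response element was looked for in their promoters. Of 38 tested genes of the list with a promoter in RefSeq, 15 (39.5%) held GAAANNGAA on either strand, against 7.69% of promoters of tested genes and 8.57% of all promoters. The 3 members looked at singly had 1 symbol, the same sign in all batches and the smallest p among such members. Samd9l held 1 match, and Epsti1 and Sp100 held none in this window. The Samd9l promoter (chr6:3399522-3399821, minus strand, GRCm38.p6 in RefSeq) is printed 5′ to 3′ with the match in capitals.
Samd9l: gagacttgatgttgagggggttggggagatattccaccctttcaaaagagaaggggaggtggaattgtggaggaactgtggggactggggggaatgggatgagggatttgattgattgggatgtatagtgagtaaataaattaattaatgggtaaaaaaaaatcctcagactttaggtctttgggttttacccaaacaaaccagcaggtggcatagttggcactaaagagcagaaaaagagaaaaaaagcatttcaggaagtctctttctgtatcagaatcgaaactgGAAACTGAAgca
The match lies near the end of the window, after the first RefSeq start.

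None of the genes of interferon receptors and JAK-STAT signalling passed in either limma fit, and at an unadjusted p under 0.05 over all batches 3 were lower and 0 higher. Of 21 tested members 18 (85.7%, against 68.0% of all tested genes) lay below 0 and 12 (57.1%, against 20.3%) were lower in all 3 batches, with medians of -1.02, -0.33 and -0.86. The item that holds Ifnar2 with the neighboring Il10rb measured 39.5, 55.5 and 7.19 FPKM in non-GC and 22.13, 7.95 and 0 in GC cells (-2.07, SE 0.59, adjusted p = 0.311). Ifngr2, a chain of the interferon-gamma receptor, was at 11.0, 20.6 and 1.23 against 0.393, 12.1 and 0. Both were lower in every pair, and neither passed. Of 29 tested genes of nucleic acid sensing 21 (72.4%) lay below 0, near the 68.0% of all tested genes, and the list median was -0.015 after centering. Tmem173, which encodes STING, was at 17.6, 21.8 and 2.6 against 4.45, 4.10 and 0 (-1.84, SE 0.54, adjusted p = 0.311). Unc93b1, the chaperone of endosomal Toll-like receptors, was at 62.7, 70.3 and 5.63 against 23.3, 20.3 and 1.91 (adjusted p = 0.356).

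Ribosomal protein genes lay below 0 nearly throughout, although none passed in either limma fit. Of 75 tested members 71 (94.7%, against 68.0% of all tested genes) lay below 0 and 36 (48.0%, against 20.3%) were lower in all 3 batches, with medians of -1.20, -1.51 and -0.62. At an unadjusted p under 0.05, 26 were lower and 0 higher over all batches. Rpl39 measured 276, 240 and 18.3 FPKM in non-GC cells and 73.8, 24.5 and 0 in GC cells (-3.03, SE 0.71, adjusted p = 0.305), and Rps29 322, 269 and 32.0 against 134, 54.2 and 4.15 (-2.02, SE 0.54, adjusted p = 0.307). Of their processed pseudogenes, which share their sequence, 62 of 72 tested lay below 0, in a list chosen after its values were seen. Rps15a-ps7 passed in batches 1 and 2 (-3.14, SE 0.37, adjusted p = 0.0399). The ribosomal protein genes had a median of 1805 annotated bases of exon, counted over all annotated exons of a gene together. Of them, 10 had 200 to 1000 bases, 29 had 1000 to 2000, 27 had 2000 to 4000 and 6 had more. Other genes had medians of -0.61, -0.39, -0.36 and -0.35 in these ranges. Within those same ranges the ribosomal protein genes had medians of -1.05, -1.26, -1.27 and -1.22. Exon bases counted in this way can exceed the length of any single transcript, so transcript length itself was not matched and its part was not tested.

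Genes of metabolism and survival were read in the same way. Of 49 tested genes of oxidative phosphorylation 37 (75.5%) lay below 0, against 68.0% of all tested genes, and 7 (14.3%) were lower in all 3 batches, against 20.3% of all, with a median of -0.62 that was -0.14 after centering. Ndufa4, of the respiratory chain, was at 44.8, 49.0 and 7.67 FPKM against 42.5, 1.21 and 0 and was level in batch 1 only. Gapdh, a glycolytic enzyme, was higher in GC cells of all 3 pairs, at 98.7, 52.0 and 13.1 FPKM against 129, 62.9 and 21.8 (0.50, SE 0.49, adjusted p = 0.673). Genes of glycolysis and glucose uptake had 15 of 20 tested members (75.0%) below 0, near the 68.0% of all tested genes. Their median of -0.55 was -0.075 after centering. Slc2a3, a glucose transporter, was at 9.16, 7.43 and 0.0839 against 0, 0.930 and 0. Cflar, which blocks death receptor signals, measured 68.8, 113 and 21.6 FPKM against 25.5, 35.7 and 1.76, and its target Casp8 30.0, 44.6 and 10.2 against 6.49, 15.3 and 0. The survival factor Mcl1 was at 104, 132 and 14.8 against 16.8, 80.9 and 1.34. All 3 were lower in GC cells of every pair (adjusted p = 0.311 each). Over the 29 tested apoptosis regulators 20 (69.0%) lay below 0, and the median of -0.21 was 0.26 after centering. Of 31 tested plasma cell and secretory genes 14 lay above 0 and 17 below, with a median of -0.21 that became 0.27 after centering. Prdm1, which directs plasma cell fate, was at 0.521, 0.437 and 0.0625 FPKM against 7.59, 2.08 and 0 (1.20, SE 0.65, adjusted p = 0.446).

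**Figure D3:**
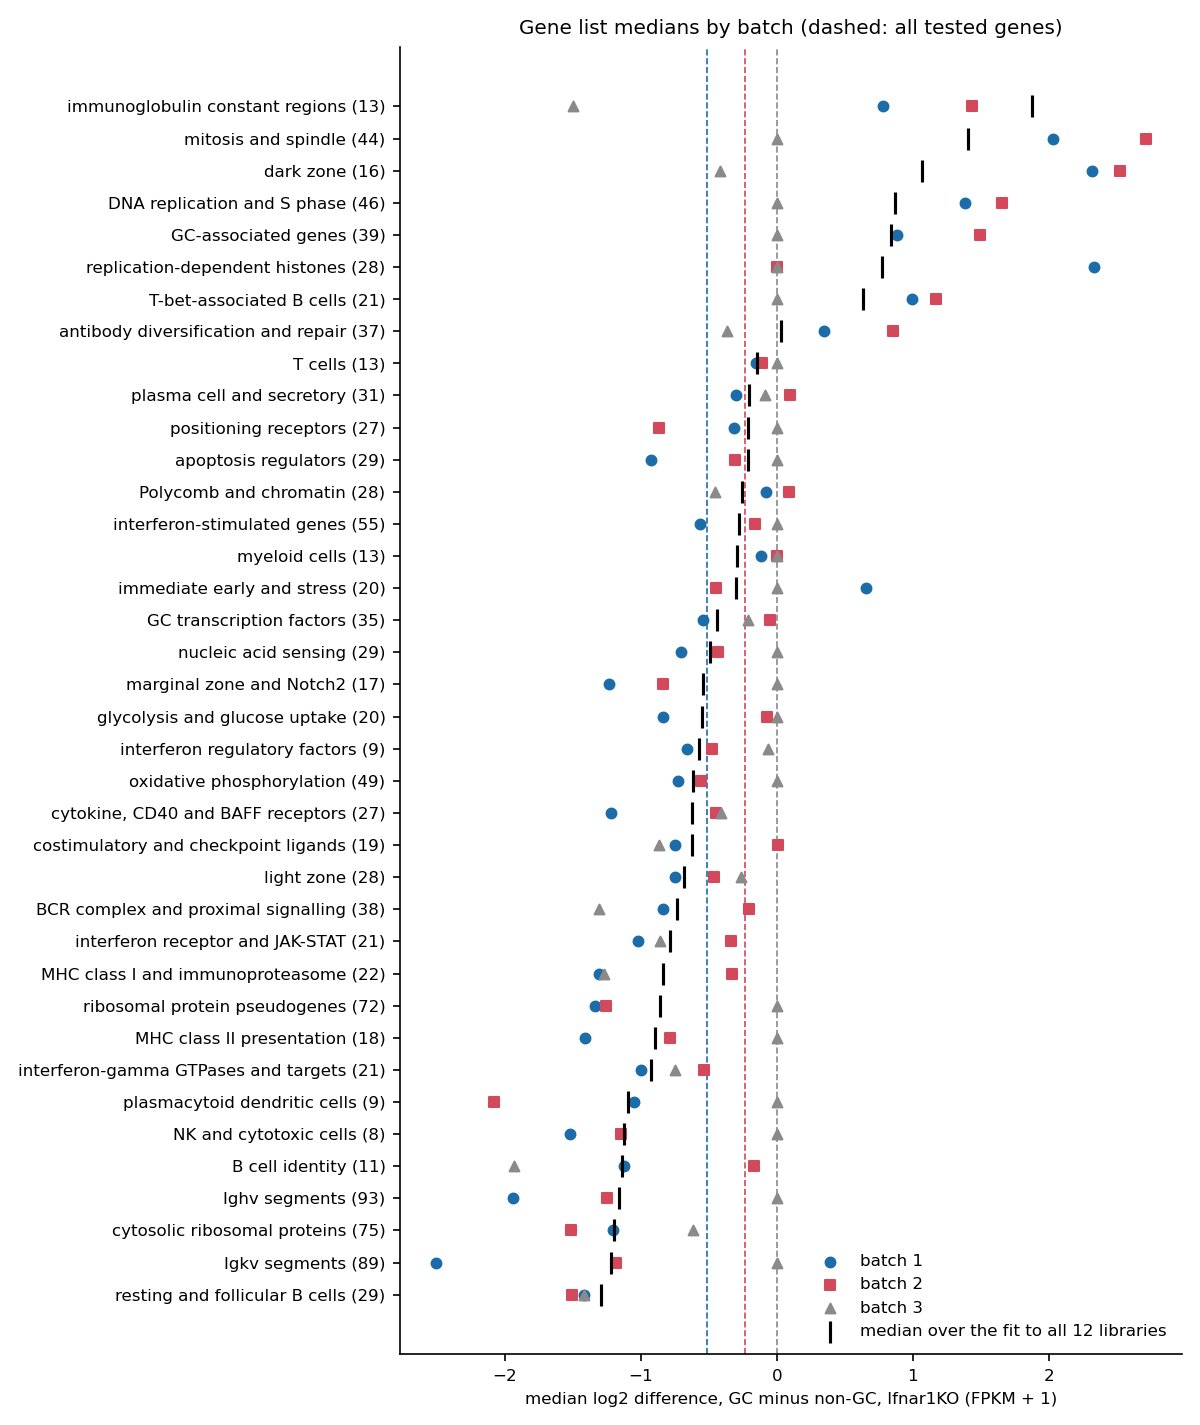
Median log2 difference (GC minus non-GC, Ifnar1KO) of 38 gene lists, with the number of tested genes in brackets, in each batch (colored points) and in the fit to all 12 libraries (black bars). Dashed lines are the medians of all tested genes, -0.51, -0.23 and 0. Mitosis stands at 2.03 and 2.72 in batches 1 and 2 and at 0 in batch 3, whereas resting B cell genes lie between -1.51 and -1.41 in all 3.

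Transcripts of other cell types were mostly low beside those of B cell genes in batches 1 and 2, but not in the GC library of batch 3. All 4 defining NK markers (Klrk1, Ncr1, Nkg7 and Gzma) were read in the non-GC cells of batches 1 and 2, with summed levels of 8.34, 18.8 and 3.26 FPKM, against 0, 0.381 and 0 in GC cells. The summed level of the 3 plasmacytoid dendritic cell markers was 14.7, 12.9 and 0.237 FPKM against 1.33, 2.81 and 0.0857, and Siglech and Klk1 were listed at 0 in all GC libraries. T cell markers summed to 4.27, 6.42 and 9.02 FPKM in non-GC and 2.85, 8.69 and 22 in GC cells. The last value was Cd3d alone, and it lay above every B cell identity gene of that library, whose highest was Cd74 at 15.3 FPKM and whose sum was 58.9. Myeloid markers summed to 17.8, 0.998 and 0 FPKM against 6.18, 2.1 and 0, with Cd14 and C1qa listed at 0 throughout. Erythroid markers summed to 12.3, 6.47 and 0 against 14.6, 0 and 3.54. The 3 stromal markers summed to 66.7, 94.8 and 3.32 against 16.7, 25.4 and 1.61, nearly all from Pecam1, which B cells also express. Their part in the differences of interferon, sensing and resting genes was not tested. In bulk libraries fewer cells that express a gene and less RNA per cell cannot be told apart.

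The authors' deposited tables gave significance for single pairs of libraries. In batch 1 the authors' deposited table called 56 named loci higher and 115 lower in GC cells of 12367 tested, in batch 2 the counts were 29 and 20 of 11032, and in batch 3 they were 261 and 432 of 8704. Those tests compare 2 libraries and not the conditions. A single gene, Adgrl2, was significant in all 3 of the authors' deposited tables, with q-values of 0.0476, 0.0129 and 0.0281. Adgrl2, an adhesion G protein-coupled receptor, measured 0.591, 0 and 0 FPKM in non-GC cells and 12.7, 7.56 and 3.05 in GC cells, with no overlap, and the fit over all batches gave 2.72 (SE 0.68, adjusted p = 0.307). Another 15 genes were significant in the same direction in 2 of the authors' deposited tables, among them Ighe, higher in batches 1 and 2. Col7a1, a collagen chain that ranked 4th among higher genes by p, was at 0.123, 0 and 5.12 FPKM against 3.09, 5.14 and 40.2.

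**Figure D4:**
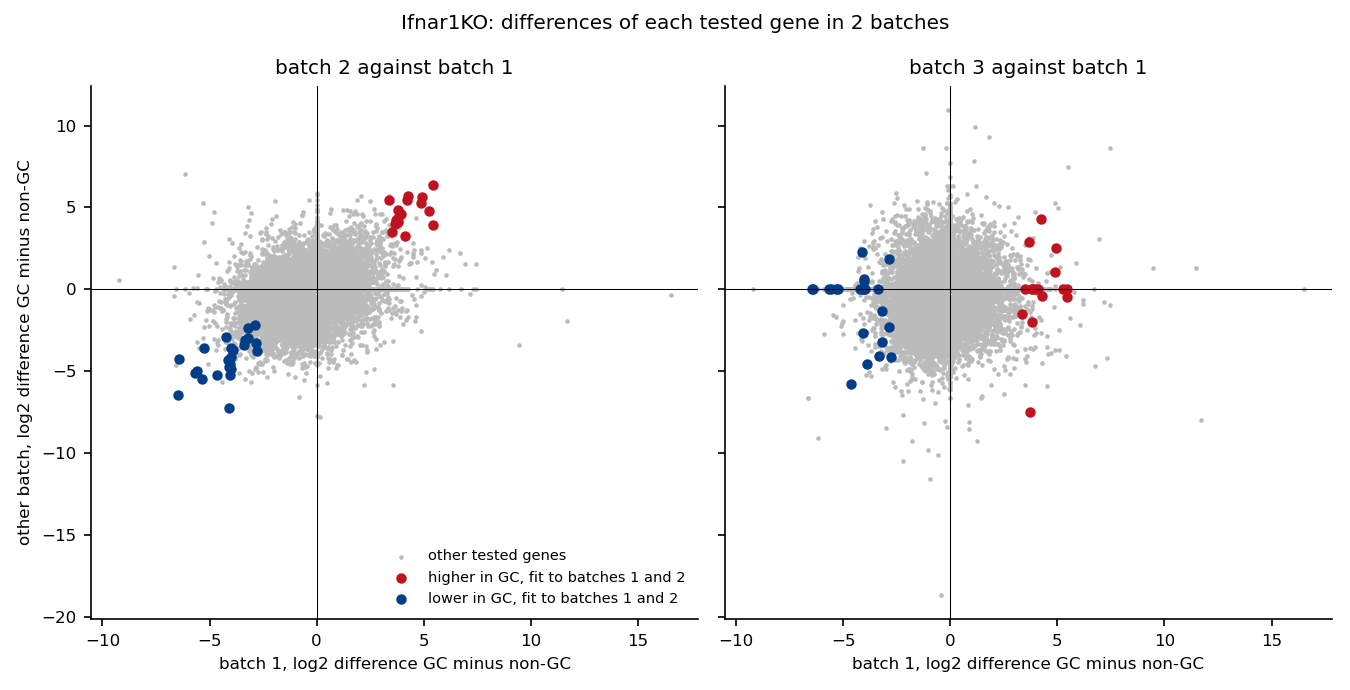
Log2 difference (GC minus non-GC) of each tested gene in batch 1 (horizontal) against batch 2 (left) and batch 3 (right), with the genes that passed in batches 1 and 2 in red (16 higher) and blue (24 lower). Each point is 1 gene. The colored genes were chosen on batches 1 and 2 and so lie in opposite corners on the left, while on the right many lie at or near 0, with r of 0.034 over all genes.

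The same contrast in Sle1b mice with intact Ifnar1 was set beside these values, and no gene was shown to differ between genotypes. For batch 1 no table set Sle1b GC against Sle1b non-GC cells directly. That difference was joined through tables shared with the Ifnar1KO libraries. The interaction of genotype and cell type gave 0 calls among 14595 genes (0.0%), with 100 genes larger and 434 smaller in Ifnar1KO at an unadjusted p under 0.05 and no adjusted p below 0.995. Mitosis genes had a median of 1.41 in Ifnar1KO and 2.08 in Sle1b, GC-associated genes 0.84 and 1.61, resting genes -1.29 and -1.41, and ribosomal protein genes -1.20 and -1.29. Medians of all genes were -0.39 and -0.12. Interferon-stimulated genes had -0.28 in Ifnar1KO and -0.71 in Sle1b, with 35 of 55 interactions above 0 (63.6%, against 38.4% of all genes). Rtp4 had joined levels of 2.93, 7.73 and 3.59 FPKM in Sle1b non-GC cells and 0, 0.582 and 0.0039 in Sle1b GC cells, while it was at or near 0 in all Ifnar1KO libraries (interaction 2.28, SE 0.65, unadjusted p = 0.00405, adjusted p = 0.995). Genes of the interferon receptor and JAK-STAT list had -0.79 in Ifnar1KO and -0.31 in Sle1b, the same order as all genes. In that list 5 of 21 interactions lay above 0 (23.8%, against 38.4% of all genes). Immunoglobulin constant regions had medians of 1.88 and 0.60, over 13 genes of which 7 lay above and 6 below 0 in both.

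Single genes with small interaction p are given as values. Ptcd2 fell in Ifnar1KO as above, and measured 19.6, 23.3 and 4.50 FPKM in Sle1b non-GC and 12.2, 5.62 and 5.25 in Sle1b GC cells (interaction -3.18, SE 0.79, adjusted p = 0.995). Plcxd2 was at 8.09, 26.5 and 0.207 FPKM in non-GC and 1.23, 10.4 and 0.375 in GC cells of Ifnar1KO, and at 3.41, 18 and 0.0397 against 24.7, 118 and 42.7 in Sle1b (interaction -4.51, SE 0.95, adjusted p = 0.995). Gm14542 was the gene with the smallest p among those higher in Ifnar1KO GC cells, at 0, 0.664 and 0.225 FPKM against 6.07, 9.96 and 13.6 (3.00, SE 0.51, adjusted p = 0.197), and was at most 0.559 FPKM in all Sle1b libraries (interaction 3.06, SE 0.73, adjusted p = 0.995).

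**Figure D5:**
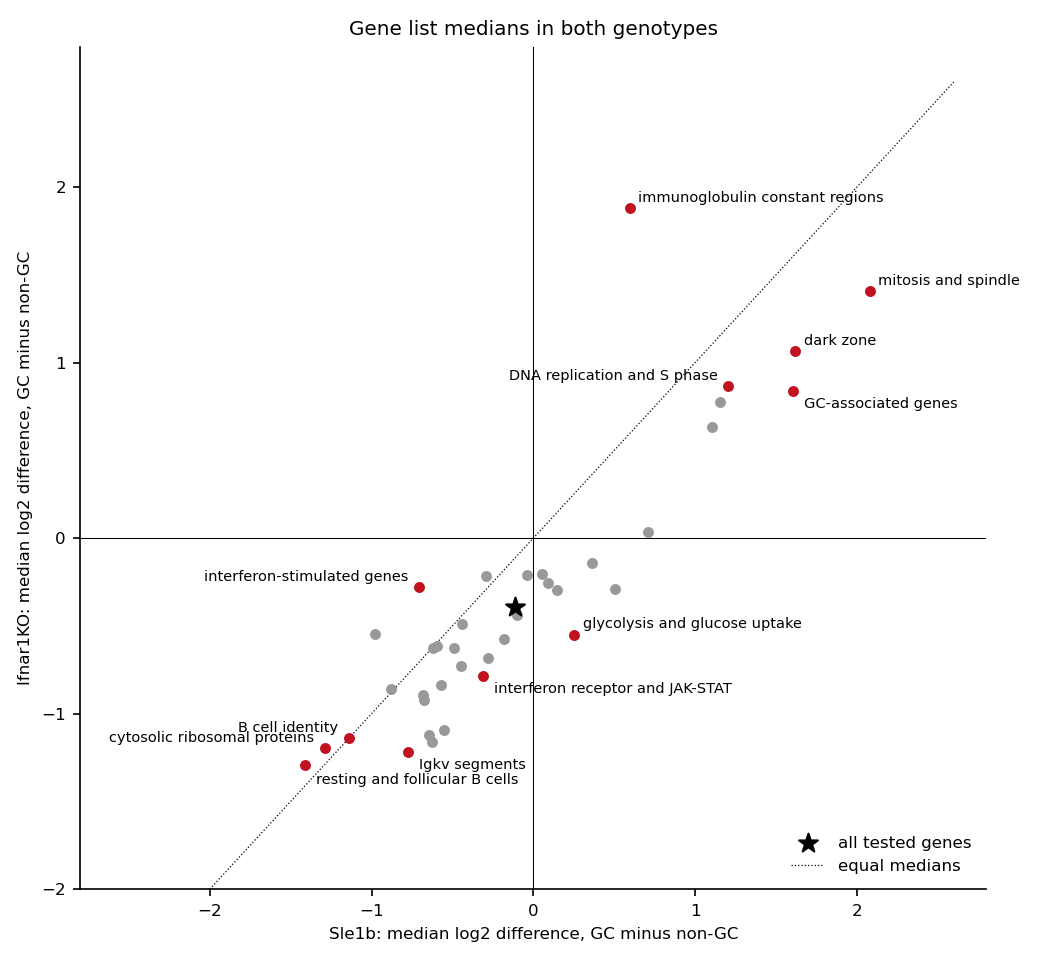
Median log2 difference (GC minus non-GC) of each of 38 gene lists in Sle1b (horizontal) and Ifnar1KO (vertical), with 12 lists named in red, all tested genes as a star and a dotted line of equal medians. Each point is 1 list. Interferon-stimulated genes lie above the line (-0.71 in Sle1b and -0.28 in Ifnar1KO) and mitosis genes below it (2.08 and 1.41).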

How the data were processed

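Cells were sorted into Trizol and their RNA was made into cDNA with an ultra-low-input kit, per the labels' protocols. The tools that the submitters' processing notes name are CASAVA, Bowtie2 (2.1.0), Cufflinks (2.2.1) with Cuffdiff, and TopHat2 (2.0.9), on GRCm38 (mm10). Each deposited table held 506504 loci with the FPKM of 2 libraries, which the authors had normalized, beside a p-value and a q-value from the authors' test. Only the 45241 loci with a gene name were used. Loci of one symbol were added up and symbols on a common locus stayed joined, for 43622 items, of which 9 had failed and were left out. Printed FPKM and single-batch differences of Ifnar1KO pairs are from their direct tables. Each table was normalized on its own, so values of both genotypes were joined within a batch by least squares over the log2 ratios of 17 tables. The limma fits used these joined values, except the fit on the direct tables alone. Fitted Ifnar1KO differences thus also depend on tables shared with Sle1b libraries and can depart from the printed FPKM. The median difference over all tested genes was -0.39 in the main fit and -0.43 with the direct tables alone. Depth was estimated from low loci, whose values were whole multiples of 1 read within 0.1 of a read, and reads on unnamed loci were counted at lengths of 400 bp or more.

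The 14595 genes that reached 1 FPKM in 3 or more libraries were tested with limma 3.58.1 in R 4.3.3 on log2(FPKM + 1), with a trend, a term for each batch and 6 residual degrees of freedom over all 12 libraries (3 in batches 1 and 2). Tests were two-sided with Benjamini-Hochberg adjustment over all genes and a threshold of 0.05, and the fit was tested on simulated data. The batch, which equals the replicate number, pairs the libraries through the deposited tables, and deviations of GC and non-GC libraries of the same batch from their group means correlated with r of 0.331, 0.444 and 0.574. The highest correlation between Ifnar1KO libraries was 0.898, so none was counted as a duplicate.

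Gene names follow a rule: the 12 smallest p in each direction with the same sign in all batches, key genes of GC biology, up to 4 members of each list, the 5 smallest interaction p in each direction and any called gene. The text describes the part of these that its themes need. The members, lists and tests were chosen with earlier results of these data known. No strand is stated, so reads of overlapping or antisense genes may be mixed. A value of 0 can be a failed estimate, and no fold is given against groups listed at 0. Promoters are from RefSeq, 1 start per gene. Alternatives were another pseudocount, scaling, filter, block, weights or trend, and fewer libraries. Some of the named genes are not reported here.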

Additional observations from a re-analysis of the deposited data

Results flagged for a closer look

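Reads on loci without a gene name are outside the comparisons above. Their estimated share was larger in the GC library of every Ifnar1KO pair: 15.0%, 13.4% and 52.6% in GC cells of batches 1, 2 and 3, against 4.31%, 6.64% and 26.9% in non-GC cells. These loci were not analyzed further.

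Of the 148 genes looked at singly, which include the 10 with the smallest interaction p, 5 moved one way in all 3 Ifnar1KO pairs and the other way in all 3 Sle1b pairs. All 5 are among those 10, the other tested genes were not searched for this, and none passed the interaction test in limma (adjusted p = 0.995 each). Kptn was higher in Ifnar1KO GC cells, at 0.812, 4.18 and 0 FPKM in non-GC and 44.5, 7.75 and 1.08 in GC cells, with an interaction of 4.26 (SE 1.19). Pigc was higher too, at 5.33, 3.63 and 0 against 6.80, 6.98 and 13.1, with an interaction of 3.25 (SE 0.93). Dguok, a mitochondrial nucleoside kinase, was lower, at 6.49, 12 and 10.5 FPKM against 0.934, 0.733 and 0 (interaction -4.71, SE 1.09). Commd10 was at 3.88, 3.52 and 1.04 FPKM in non-GC cells and listed at 0 in GC cells (interaction -4.01, SE 0.92), and Zswim1 at 3.65, 2.25 and 2.95 against 0.0891, 0 and 0 (interaction -2.82, SE 0.65).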

How the results depend on the processing

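In limma, the 3 calls of GC against non-GC in Ifnar1KO became 1 with a pseudocount of 0.1 or 5, after centering, with no filter or with quality weights. They became 0 with quantile normalization (724 higher and 674 lower at an unadjusted p under 0.05), with the 6 Ifnar1KO samples alone (206 and 1067), with the 3 direct tables alone (164 and 1095), and with batches 1 and 2 on the same genes (582 and 1962). They became 40 with batches 1 and 2 and the filter redone. Without the replicate block there were 0 calls (203 lower and fewer higher at an unadjusted p under 0.05). Leaving out each library gave 0 to 3 calls, and 0 to 1 for the interaction, which otherwise had 0 in limma (100 and 434 at an unadjusted p under 0.05). Of 3548 recomputed differences of 148 genes, 27 in 6 genes turned sign. Bcl6 became 0.10 (pseudocount 5), 0.17 (centered), 0.24 (quantile), 0.60 (batches 1 and 2, either filter) and 0.04 (weights), and ranged from -0.77 to 0.47 over left-out libraries. Brip1 became -0.37 at a pseudocount of 5 and ranged from -1.56 to 3.48. Myc became 0.65 and Cd83 0.10 in batches 1 and 2, and Myc ranged from -1.32 to 0.25. Cxcr4 became 0.42 (centered) and 0.13 (quantile) and ranged from -0.70 to 0.37, and Rtp4 from -0.11 to 0.29. The cause was not tested. Of 840 list medians, 762 moved by less than the spread between batches. Depth limits low genes, since 1 read on 1 kb is 0.131 to 0.394 FPKM.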
